A study of Mus musculus with 155 samples.

Results

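The genes described here encode the proteasome and the enzymes and adaptors that attach or remove ubiquitin. They were chosen by symbol alone, as the stems Psma to Psmg, Ube2 to Ube4, Usp, March and Cul followed by a digit, together with every symbol that starts with Fbx or Klhl. The rule found 78 of the 3422 genes in the table. They are 11 subunits of the 20S core (Psma and Psmb), 3 ATPases (Psmc) and 9 other subunits (Psmd) of the 19S regulatory particle, 3 activators or inhibitors (Psme2, Psme4 and Psmf1), 13 E2 conjugating enzymes (Ube2), the ligase Ube3b, 16 deubiquitinases (Usp), 13 F-box proteins, the cullin Cul4a, 6 Kelch-like adaptors and 2 membrane RING ligases (March7 and March8). The sources used here do not say how the table came to hold these 3422 genes.

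SMART-Seq2, which reads whole transcripts of single cells, was applied to 155 live sorted cells. They came from the subventricular zone, where neuroblasts are born beside the ventricle, and from the adjoining white matter of the corpus callosum, in mice aged 8 to 10 weeks. OligNBL comprised 40 cells positive for both Gad67-GFP and Olig2-Tomato, from the cross of the CB6-Tg(Gad1-EGFP)G42Zjh/J and Olig2-tdTomato TH39Gsat/Mmcd strains. NBL comprised 27 GFP+ cells and OL 22 Tomato+ cells. These 3 populations came from mice taken 6 days after an injection of LPC, a lipid that strips myelin. O (29 Tomato+ cells) and NB (37 GFP+ cells) came from healthy mice that were not injected. NBL and NB shared the GFP strain and OL and O the Tomato strain, so strain and gate cannot be told apart in any comparison between gates. The labels put OligNBL in demyelinated mice, whereas the titles of these cells carry a control mark; the lesion state of the labels is used. Per the labels 5 mice were used in each condition, but no cell is tied to a mouse, so each population counts as 1 sample, with no replicate check and no test between populations.

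The deposited values are called estimated counts but were already normalized between cells: totals ran from 5155899 to 5161091, a range of 0.101%, so sequencing depth is unknown. The level of a gene is the mean over cells of log2(value + 1), given with the SD between cells, and a gene counts as present in a cell where it was among the 500 highest genes of that cell. The median number of genes detected was 1397 in OligNBL, 1161 in NBL, 950.5 in OL, 1187 in O and 1114 in NB cells. Cells with neighboring cell numbers, taken from the titles, were alike: the mean correlation was 0.49 to 0.56 for cells at most 4 numbers apart and 0.19 to 0.35 for cells at least 17 apart. Each population was therefore also read in 4 consecutive blocks of cell number. The oligodendrocyte markers (12 of 12 measured) had a median summed level of 0.49 in OligNBL, 0.84 in NBL, 117 in OL, 88.5 in O and 1.60 in NB, where Mog and Mal were at 0 in OligNBL and Mal, Cldn11, Ugt8a and Ptgds in NBL. The neuroblast markers (11 of 12 measured) stood at 30.5 in OligNBL, 36.5 in NBL, 8.82 in OL, 7.21 in O and 32.8 in NB, with Cd24a at 0 in O. Those of oligodendrocyte progenitors (6 of 6) stood at 11.4, 2.72, 4.35, 6.72 and 0 in the same order. Listed microglial, astrocytic and ependymal markers are not analysed here, and of the endothelial and mature neuron lists only Pecam1 and Snap25 were measured. Pecam1 was at 8.11 in OligNBL, 8.59 in NBL, 8.49 in OL, 10.53 in O and 6.54 in NB. Snap25 was at 1.71 in OligNBL, 0.24 in NBL, 2.02 in OL, 6.2 in O and 0.23 in NB, so it moves with the comparisons of OL with O and of O with NB. The part of endothelial or neuronal RNA in the results was not tested.

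Ubiquitin is activated by an E1 enzyme, passed to an E2 enzyme and attached to its target with the help of an E3 ligase. Cullin ligases choose targets through exchangeable adaptors such as F-box and Kelch-like proteins, and deubiquitinases of the Usp family remove the tag. Tagged proteins are bound, stripped of ubiquitin and unfolded by the 19S particle, then cut in the barrel of the 20S core; in neural progenitors the system is known for removing cell cycle regulators and transcription factors as cells differentiate.

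Promoters are shown for 5 proteasome genes, chosen after their values were seen as examples of genes with their highest level in different populations: Psme2 (high in OligNBL), Psmb6 (NBL and OL), Psmb5 (OL), Psmd6 (O and OL) and Psmb3 (NB). The sequences are those of RefSeq on GRCm38.p6, from 250 bases before to 50 bases after the first listed start. The positions are chr14:55591052-55591351 (minus strand) for Psme2, chr11:70525107-70525406 (plus) for Psmb6, chr14:54617946-54618245 (minus) for Psmb5, chr14:14120896-14121195 (minus) for Psmd6 and chr11:97703184-97703483 (plus) for Psmb3. Capitals mark matches, on either strand, to the antioxidant response element TGACNNNGC, the CCAAT box CCAAT or the GC box GGGCGG.
Psme2: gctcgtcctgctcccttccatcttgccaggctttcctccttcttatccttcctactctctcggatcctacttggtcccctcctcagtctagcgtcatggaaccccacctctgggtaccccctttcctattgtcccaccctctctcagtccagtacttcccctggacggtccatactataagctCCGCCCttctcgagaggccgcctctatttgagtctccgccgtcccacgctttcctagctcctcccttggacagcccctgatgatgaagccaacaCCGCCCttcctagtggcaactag
Psmb6: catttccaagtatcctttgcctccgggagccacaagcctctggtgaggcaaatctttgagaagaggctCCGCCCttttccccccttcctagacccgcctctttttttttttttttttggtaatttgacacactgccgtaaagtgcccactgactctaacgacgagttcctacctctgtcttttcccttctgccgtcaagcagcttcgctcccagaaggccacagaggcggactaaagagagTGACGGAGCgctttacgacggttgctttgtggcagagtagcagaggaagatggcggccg
Psmb5: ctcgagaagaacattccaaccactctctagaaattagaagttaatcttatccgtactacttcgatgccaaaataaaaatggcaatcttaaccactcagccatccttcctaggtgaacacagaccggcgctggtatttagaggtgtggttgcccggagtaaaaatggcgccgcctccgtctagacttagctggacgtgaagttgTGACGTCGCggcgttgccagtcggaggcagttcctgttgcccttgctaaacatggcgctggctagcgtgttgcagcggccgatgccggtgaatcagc
Psmd6: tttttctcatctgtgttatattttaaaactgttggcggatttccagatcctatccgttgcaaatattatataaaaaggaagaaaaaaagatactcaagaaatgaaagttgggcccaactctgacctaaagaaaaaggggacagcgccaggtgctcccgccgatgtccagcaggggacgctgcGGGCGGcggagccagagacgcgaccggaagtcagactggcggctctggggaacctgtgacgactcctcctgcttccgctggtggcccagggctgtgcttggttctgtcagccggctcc
Psmb3: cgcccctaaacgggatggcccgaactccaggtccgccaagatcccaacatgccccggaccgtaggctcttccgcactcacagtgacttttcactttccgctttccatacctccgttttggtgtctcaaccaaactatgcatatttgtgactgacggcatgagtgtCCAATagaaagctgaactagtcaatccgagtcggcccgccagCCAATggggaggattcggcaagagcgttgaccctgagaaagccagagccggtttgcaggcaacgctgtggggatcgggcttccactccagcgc
Psmb5 and Psmb6, which encode catalytic subunits, each held a match to the antioxidant response element. It was found in 5 of the 23 promoters matched among the 26 Psm genes (21.7%), against 12.5% of 27025 promoters of all genes. The CCAAT box was in 39.1% of the Psm promoters and 37.9% of all, and the GC box in 60.9% and 35.9%. A match is a description of these letters and not evidence of a bound factor.

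Levels of these genes were distributed over the populations gene by gene rather than as a block. Of the 78 genes, 54 (69.2%) had a range of at least 2 between their highest and lowest population level, as did 59.1% of all genes in the table. In 31 (39.7%, against 29.3% of all genes) the highest population stood at least 2 above the next. These were 8 genes for OligNBL, 6 for NBL, 4 for OL, 4 for O and 9 for NB. As shares of the 78 genes these are 10.26%, 7.69%, 5.13%, 5.13% and 11.54% in the same order. The shares of all genes highest by that margin were 6.98%, 5.49%, 5.29%, 5.64% and 5.84%. The shares for OL and O are thus near the background. Subunits of the same complex lay in different populations: Psmb7 and Psma7 were highest by this margin in OligNBL, Psmd7 and Psmd14 in NBL, Psmb5 and Psmc3 in OL, Psmd6, Psmd2 and Psmc2 in O, and Psmb3, Psmd1 and Psmd4 in NB. The count of all 78 genes present per cell was 9.33 ± 1.99 in OligNBL, 12.3 ± 2.15 in NBL, 9.73 ± 1.55 in OL, 9.28 ± 2.10 in O and 11.97 ± 2.87 in NB (SD between cells). That is 1.87%, 2.47%, 1.95%, 1.86% and 2.39% of the 500 highest genes, where the genes make up 2.28% of the table.

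**Figure D1:**
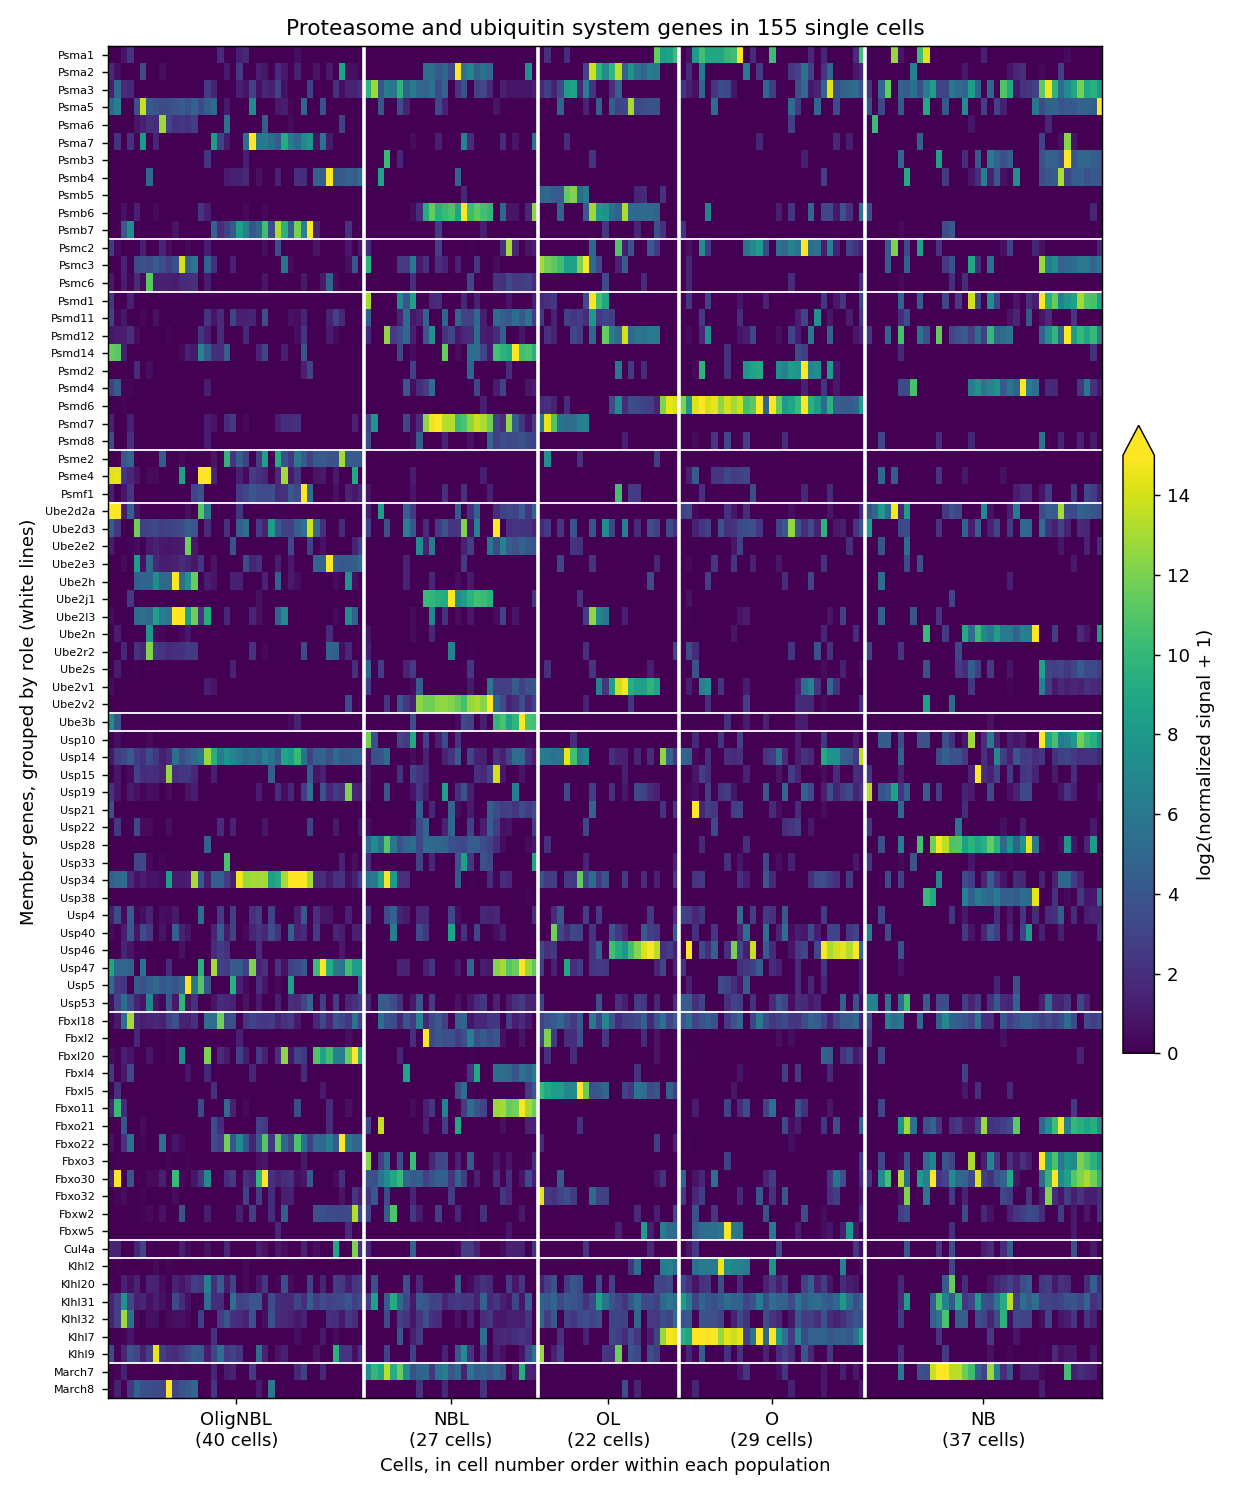
Level of the genes reported here, as log2(normalized signal + 1) from dark (0) to bright (15 and above), in each of the 155 cells; rows are grouped by role and cells run by cell number within each population. Psmd6 and Klhl7 have signal in all 29 O cells, from 4.24 and 2.54 upward, and are bright in the last 3 OL cells, and most other bright stretches cover neighboring cells of 1 population.

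Subunits of the 19S particle were seldom among the highest genes of OligNBL cells by presence, a comparison chosen after the values were seen. OligNBL cells had 0.50 ± 0.64 of the 12 measured 19S subunits present, against 2.11 ± 1.22 in NBL, 1.95 ± 1.05 in OL, 2.0 ± 1.20 in O and 2.0 ± 1.21 in NB cells. That is 0.10%, 0.42%, 0.39%, 0.40% and 0.40% of the 500 highest genes, where the 12 make up 0.35% of the table. By the number detected OligNBL was not the lowest: cells had 3.20 ± 2.04 of the 12 detected in OligNBL, 5.30 ± 2.66 in NBL, 3.55 ± 1.44 in OL, 3.79 ± 1.57 in O and 3.11 ± 1.70 in NB. As a mean share of the genes detected in a cell, OligNBL was the lowest. The share was 0.22% in OligNBL, 0.42% in NBL, 0.36% in OL, 0.32% in O and 0.30% in NB. No 19S subunit was present in 23 of 40 OligNBL cells (57.5%, exact 95% binomial interval 40.9 to 73%), in 2 of 27 NBL, 0 of 22 OL (a share of up to 15.4%), 0 of 29 O (up to 11.9%) and 4 of 35 NB cells. Intervals cover counting error only, and they are too narrow because neighboring cells were alike; the 2 NB cells with fewer than 500 genes detected have no presence value. Block means of presence did not overlap: they ran from 0.10 to 0.80 in OligNBL, and the lowest block mean of any other population was 1.11, in NB. In O the lowest was 1.38, but Psmd6 was present in every O cell (100%) and is part of each O count. The 0 of 29 in O, and the gap between the block means of O and OligNBL, therefore rest on that gene. No 19S subunit reached a level of 2 in OligNBL, whereas 4 did in NBL, 4 in OL, 3 in O and 4 in NB; Psmc6 alone was highest in OligNBL, at 0.91. Over all 3422 genes, 888 reached that level in OligNBL, 779 in NBL, 856 in OL, 805 in O and 813 in NB. OligNBL cells also had the most genes detected of the 5 populations.

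For the 20S core, block means of OL (1.67 to 2.60) lay above those of O (0.71 to 1.57). OligNBL cells had 1.5 ± 0.78 of its 11 measured subunits present, NBL cells 1.59 ± 1.08, OL cells 2.18 ± 1.05, O cells 1.14 ± 0.83 and NB cells 2.17 ± 1.27, and the block means of OligNBL (1.00 to 2.10) overlapped those of every other population. For the 16 Usp deubiquitinases, OligNBL cells had 2.68 ± 0.92 present, against 2.19 ± 1.11 in NBL, 1.41 ± 0.50 in OL, 1.38 ± 1.21 in O and 2.51 ± 1.15 in NB cells. Their block means in OligNBL (2.50 to 3.00) lay above those of O and OL and overlapped those of NBL and NB.

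**Figure D2:**
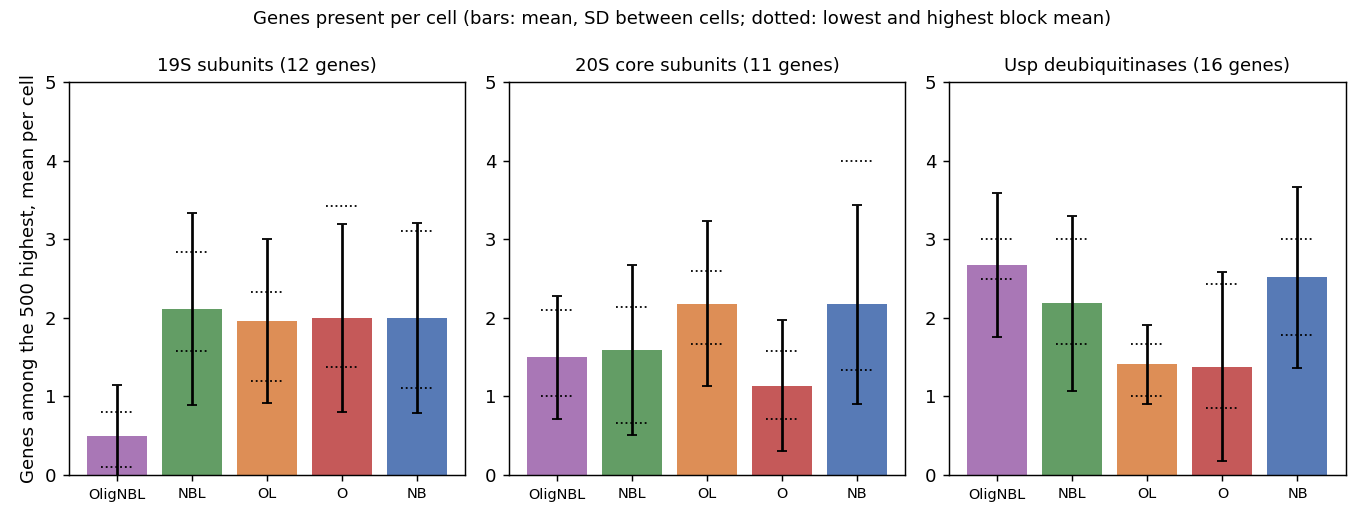
Mean number of 19S subunits, 20S core subunits and Usp deubiquitinases among the 500 highest genes of a cell, by population; bars are means, whiskers the SD between cells and dotted lines the lowest and highest block mean. The 19S mean is 0.50 in OligNBL and 1.95 to 2.11 in the other populations. The 20S block means of OligNBL overlap those of every other population.

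Psmd6 (GRCm38 chromosome 14, 14112174 to 14120984), a lid subunit of the 19S particle, was high in O and lower in OL. It was near 0 in OligNBL, although those cells are also Tomato+. Its values in OL ran from 0 through a median of 1.89 to 14.42 on the log2 scale, and in O from 4.24 through 10.52 to 18.14. In the other populations it was detected in 1 of 40 OligNBL cells (highest 0.21), 1 of 27 NBL cells (highest 1.28) and 0 of 37 NB cells. The gene was thus present in every O cell, and no cell of the GFP+ gates or of OligNBL came near the lowest O cell. Its level was 10.56 ± 4.06 in O and 0.00 in NB, a difference of 10.56, with all block means apart. OL, at 3.38 ± 4.48, differed from O by -7.18. The last 3 OL cells by number held 12.10, 14.42 and 13.96, and among the other 19 OL cells the highest held 7.27, so the OL mean rests largely on 3 cells and the block means of OL and O overlapped. By number these 3 cells lie directly before most O cells.

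Psmd7 (chromosome 8, 107580381 to 107588464), another lid subunit and the partner of the deubiquitinase Psmd14, was high in NBL and in some OL cells. It was detected in 12 of 40 OligNBL cells, none above 2.48. Its values ran from 0 through 4.49 to 18.99 in NBL and from 0 through 0 to 14.52 in OL, and it was detected in 0 of 29 O and 0 of 37 NB cells. Levels were 0.45 ± 0.76 in OligNBL, 7.01 ± 5.96 in NBL, 2.77 ± 4.21 in OL and 0.00 in O and NB. NBL exceeded NB by 7.01 and OL exceeded O by 2.77. Within both, cells with and without the gene lay together by number: 16 consecutive NBL cells (the 10th to the 25th) and the first 8 OL cells were at 2 or more. The block means were apart between NBL and NB and not between OL and O, because later OL cells were at 0.

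Psmd14 and Psmd11 shared with Psmd7 their highest level in NBL and block means apart from NB, and Psmd12 did not. Psmd14, which cuts ubiquitin chains off arriving substrates, was at 1.41 ± 2.81 in OligNBL, 4.01 ± 5.14 in NBL, 0.00 in OL, 0.29 ± 0.89 in O and 0.10 ± 0.44 in NB, and was detected in 0 of 22 OL cells. Psmd12 was at 0.43 ± 0.73 in OligNBL, 2.34 ± 2.85 in NBL, 3.63 ± 3.88 in OL, 1.13 ± 1.97 in O and 4.78 ± 4.41 in NB. It was the only gene among the 78 that passed a difference of 2 in opposite directions in the demyelinated cells of the GFP and Tomato gates, 2.44 lower in NBL than in NB and 2.49 higher in OL than in O. That is 1 of the 11 genes lower in NBL, a share near that over all genes, where 21 of 287 were higher in OL. Psmd11 was at 2.68 ± 2.20 in NBL, 2.23 above NB, and between 0.45 and 1.38 in the other 4 populations.

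Among the subunits of the 19S base, Psmd2, which docks shuttle factors, was at 0.47 ± 1.40 in OL, 3.68 ± 4.46 in O and 0.00 in NB. Psmd1, its paired scaffold, ran the other way between the healthy populations, at 0.57 ± 1.05 in O and 4.07 ± 4.96 in NB. Psmd4, a ubiquitin receptor, was at 0.89 ± 1.48 in NBL, 0.16 ± 0.51 in O and 2.92 ± 3.64 in NB. These 3 subunits therefore separated the healthy populations in different directions, Psmd2 and Psmd4 with block means apart. Of the ATPases that unfold substrates, Psmc2 was at 1.26 ± 2.67 in OL, 3.43 ± 3.59 in O and 1.02 ± 2.51 in NB. Psmc3 was at 1.76 ± 2.79 in OligNBL, 1.19 ± 2.20 in NBL, 4.90 ± 5.74 in OL, 0.05 ± 0.29 in O and 2.60 ± 3.29 in NB. Its OL signal lay in the first 10 cells by number. Psmc6 was low and even, between 0.12 and 0.91.

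**Figure D3:**
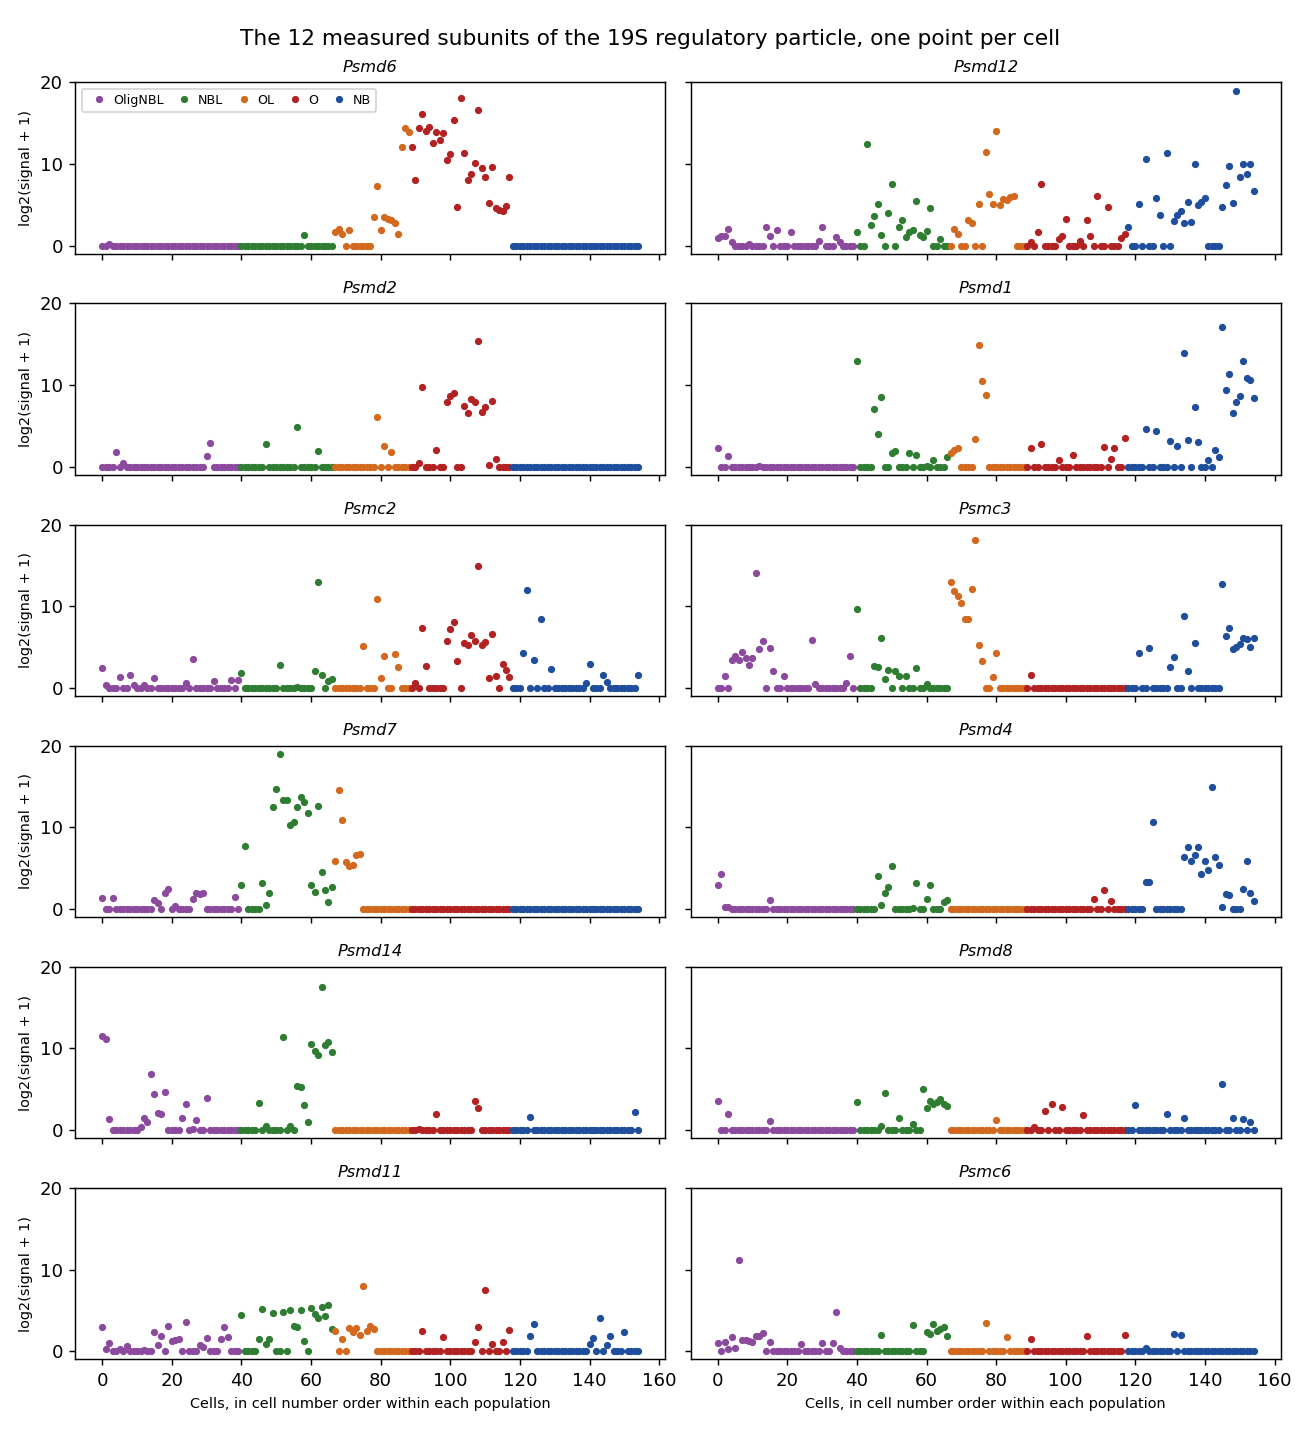
Values of the 12 measured 19S subunits on the log2(signal + 1) scale, with each point 1 cell and cells in number order within OligNBL, NBL, OL, O and NB. Psmd6 lies between 4.24 and 18.14 in O and at or near 0 in OligNBL, NBL and NB, Psmd7 fills a stretch of NBL and the first OL cells, and no panel has an OligNBL mean of 2 or more.

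The 3 catalytic subunits of the 20S core lay in 3 different patterns. Psmb5, the chymotrypsin-like subunit, was detected in 0 of 40 OligNBL, 1 of 27 NBL, 11 of 22 OL, 0 of 29 O and 0 of 37 NB cells, and its values in OL ran from 0 through 0.77 to 12.07. Its level was 2.68 ± 3.66 in OL, 2.68 above both OligNBL and O, with block means apart in each case. Because 74% of the 31-base words of its transcripts occur in transcripts of other genes, a pseudogene among them, its values are uncertain. Psmb6, the caspase-like subunit, had a highest cell of 2.29 in OligNBL, ran from 0 through 1.98 to 16.42 in NBL and from 0 through 4.73 to 13.12 in OL, and had a highest cell of 6.77 in O and 3.73 in NB. Psmb6 levels were 0.16 ± 0.46 in OligNBL, 5.25 ± 5.40 in NBL, 3.91 ± 4.04 in OL, 1.19 ± 1.99 in O and 0.15 ± 0.66 in NB. Psmb7, the trypsin-like subunit, was instead a gene of OligNBL, at 3.28 ± 4.40, against 0.14 ± 0.54 in NBL, 0.45 ± 1.03 in OL, 0.08 ± 0.42 in O and 0.22 ± 0.91 in NB. It was present in 16 of 40 OligNBL cells and 0 of 27 NBL cells, and 14 of the OligNBL cells at 2 or more were consecutive.

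The alpha ring, which gates the barrel, divided in the same manner. Psma7 was at 2.86 ± 3.95 in OligNBL and 0.69 ± 1.65 in NBL, 0.09 ± 0.41 in OL, 0.15 ± 0.46 in O and 0.58 ± 2.17 in NB. Psma2 was at 0.70 ± 1.52 in OligNBL, 2.85 ± 4.10 in NBL, 4.23 ± 4.66 in OL, 1.39 ± 2.04 in O and 0.41 ± 1.22 in NB. Psma1 was highest in O (3.86 ± 5.10) and undetected in the 27 NBL cells. Psma3, by contrast, was detected widely, in 21 of 40 OligNBL, 24 of 27 NBL, 11 of 22 OL, 21 of 29 O and 33 of 37 NB cells. Its level was lowest in OligNBL (0.92 ± 1.18) and highest in NB (5.81 ± 3.78). The structural beta subunit Psmb3 was at most 0.43 in the other populations and 2.58 ± 3.41 in NB, with 66.8% of its words shared with other genes. Psma5 was at 2.34 ± 2.92 in OligNBL, 0.54 ± 1.18 in NBL, 2.23 ± 3.08 in OL, 0.74 ± 1.73 in O and 2.69 ± 3.33 in NB. Psmb4 was at 1.60 ± 2.90 in OligNBL, at most 0.50 in NBL, OL and O, and 2.28 ± 3.07 in NB.

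The 3 activators and inhibitors had their highest level in OligNBL. Psme2, a subunit of the interferon-inducible 11S cap that opens the core without ubiquitin, ran from 0 through 2.83 to 12.96 in OligNBL. It was detected in 27 of 40 OligNBL cells, 0 of 27 NBL, 3 of 22 OL, 0 of 29 O and 0 of 37 NB cells. The OligNBL cells with Psme2 were spread over all 4 blocks, whose means ran from 1.31 to 4.91, and the highest OL block mean was 1.23. Its level was 2.89 ± 3.16 in OligNBL, 2.89 above NBL and 2.34 above OL. Of its words, 66.2% are shared with the near copy Psme2b, so the signal may come from either gene. Psme4, a single-chain activator known for nuclear proteasomes, was at 2.94 ± 5.16 in OligNBL, 0.10 ± 0.33 in NBL, 0.00 in OL, 0.76 ± 1.32 in O and 0.36 ± 1.14 in NB. None of its words are shared. Psme4 was at 2 or more in 11 of 40 OligNBL and 7 of 29 O cells, with a highest value of 17.75 in OligNBL and 4.22 in O. Psmf1, known as an inhibitor of the core in vitro, was at 1.77 ± 2.93 in OligNBL and between 0.26 and 0.70 in the other populations, which is under the difference of 2.

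Among the E2 enzymes, Ube2v2, Ube2v1 and Ube2n are partners: the Ube2v proteins lack catalytic activity and pair with Ube2n to build chains used mostly in signalling. Each had its highest level in a different population. Ube2v2 (chromosome 16, 15552077 to 15595773) had a highest cell of 3.41 in OligNBL, ran from 0 through 3.98 to 20.19 in NBL, and had a highest cell of 2.24 in OL, 2.85 in O and 8.57 in NB. Its level was 6.81 ± 5.78 in NBL, 6.72 above OligNBL and 6.44 above NB, with block means apart in both. Ube2v1 was at 0.06 ± 0.23 in OligNBL, 1.41 ± 1.87 in NBL, 4.15 ± 5.17 in OL, 1.43 ± 2.36 in O and 0.67 ± 1.29 in NB, and 92.2% of its words are shared with other genes. Ube2n was at 0.32 ± 1.26 in OligNBL, 0.11 ± 0.36 in NBL, 0.00 in OL, 0.16 ± 0.49 in O and 3.19 ± 4.09 in NB. In NBL, where Ube2v2 was high, Ube2n was detected in 3 of 27 cells.

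Ube2j1, an enzyme of endoplasmic reticulum quality control, was at 4.22 ± 5.25 in NBL and at most 0.09 in each other population. Its longest stretch, the 10th to the 20th NBL cell, was also the longest stretch of Psma2 and of Psmb6 in NBL. Ube2h was at 2.33 ± 3.62 in OligNBL and at most 0.27 elsewhere, and Ube2l3, which works with HECT and RBR ligases, was at 3.20 ± 4.40 in OligNBL and at most 1.34 elsewhere. More than 50% of the words of both are shared with other genes. Ube2d3, a broadly acting E2 enzyme, was in contrast even, at 2.95 ± 3.09 in OligNBL, 2.81 ± 3.75 in NBL, 2.05 ± 2.18 in OL, 2.63 ± 2.77 in O and 1.67 ± 2.11 in NB. Its relative Ube2d2a was at 0.50 ± 0.94 in O and 3.25 ± 3.60 in NB. The ligase Ube3b was at 3.25 ± 4.84 in NBL and at most 0.33 elsewhere.

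Of the deubiquitinases, Usp14 (chromosome 18, 9993066 to 10045119), which trims chains on the proteasome itself, was detected throughout OligNBL. Its values there ran from 0.95 through 4.72 to 12.76 and it was detected in 40 of 40 cells, against 19 of 27 NBL cells with a highest value of 5.35. It was present in 75% of OligNBL cells (interval 58.8 to 87.3%), 18.5% of NBL (6.30 to 38.1%), 45.5% of OL, 31% of O and 17.1% of NB cells. The level was 5.06 ± 2.44 in OligNBL and 1.83 ± 1.79 in NBL, a difference of 3.23; the lowest OligNBL block (2.47) lay under the highest NBL block (3.00). OL, at 4.08 ± 4.27, was within 2 of OligNBL. Of the words of Usp14, 45.5% are shared with Thoc1, so part of the signal may come from that gene. Usp34, a large enzyme known from Wnt signalling, was also detected in 40 of 40 OligNBL cells, at 5.95 ± 5.62, against 2.25 ± 3.99 in NBL and 2.21 ± 2.59 in OL. Usp5, which recycles free chains, was at 2.72 ± 3.53 in OligNBL and was detected in 0 of 27 NBL and 0 of 22 OL cells.

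Usp46, known for acting on glutamate receptors, followed the Tomato gate. It was at 0.32 ± 0.70 in OligNBL, 0.00 in NBL, 5.32 ± 5.67 in OL, 5.65 ± 5.96 in O and 0.10 ± 0.62 in NB, so that OL and O differed by 0.33 only. Usp28, known for stabilizing Myc, followed the GFP gate in part, at 0.12 ± 0.75 in OligNBL, 3.77 ± 2.51 in NBL, 0.09 ± 0.44 in OL, 0.13 ± 0.49 in O and 5.55 ± 5.05 in NB. Usp38 was almost wholly an NB gene: it was detected in 1 of 27 NBL cells, in 0 cells of OligNBL, OL and O, and in 20 of 37 NB cells (level 2.83 ± 3.57). Usp10, which acts on p53, was at 1.49 ± 2.90 in NBL, 0.39 ± 0.84 in O and 3.95 ± 4.35 in NB. Usp47 was at 4.45 ± 4.53 in OligNBL, 3.94 ± 5.77 in NBL, 1.43 ± 2.09 in OL, 0.78 ± 1.19 in O and 0.02 ± 0.12 in NB. Usp4 and Usp19 varied by less than 1 over the populations.

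F-box proteins are the substrate adaptors of Skp1 and Cul1 ligases. Fbxl5 (chromosome 5, 43744615 to 43821638), the iron sensor that removes iron regulatory protein Irp2, was detected in 3 of 40 OligNBL, 5 of 27 NBL, 19 of 22 OL, 2 of 29 O and 3 of 37 NB cells. Its values in OL ran from 0 through 4.83 to 19.50. The level in OL, 5.68 ± 4.43, stood 5.63 above O and 5.55 above OligNBL, and every OL block mean (2.96 to 8.29) lay above those of both. Fbxo22 (chromosome 9, 55208925 to 55224433) ran from 0 through 3.80 to 15.71 in OligNBL, where it was detected in 31 of 40 cells, and was detected in 0 of 27 NBL, 3 of 22 OL, 2 of 29 O and 0 of 37 NB cells. Its level of 4.00 ± 3.90 stood 4.00 above NBL and 3.74 above OL. Both adaptors were detected in most cells of their own population and in few cells of any other. Fbxl20, known for degrading a presynaptic scaffold, was at 3.47 ± 4.78 in OligNBL and at most 0.60 elsewhere. Fbxo11, which removes Bcl6, was at 4.39 ± 5.75 in NBL and at most 0.87 elsewhere, mostly through the last 7 NBL cells.

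In NB the leading adaptors were Fbxo30, Fbxo21 and Fbxo3. Fbxo30 was at 2.34 ± 3.94 in OligNBL, 3.31 ± 2.67 in NBL, 0.33 ± 1.00 in OL, 1.07 ± 1.81 in O and 6.52 ± 5.11 in NB. Fbxo21 was at 1.23 ± 3.11 in NBL, 0.55 ± 1.30 in O and 4.73 ± 4.80 in NB, and Fbxo3 at 1.91 ± 3.11 in NBL, 0.20 ± 0.73 in O and 4.14 ± 4.50 in NB. Each was thus lower in NBL and in O than in NB by more than 2. The last 10 NB cells by number formed the longest stretch of Fbxo21 and Fbxo3, and also of Psmc3, Psmd1, Psmb3, Psmb4 and Usp10. Fbxl18 lay between 2.40 ± 1.80 in NBL and 3.64 ± 1.51 in OL. Fbxl2 and Fbxl4 were highest in NBL, at 2.31 ± 3.28 and 2.11 ± 3.05, and Fbxw5 in O, at 2.51 ± 3.62.

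Among the Kelch-like adaptors of Cul3 ligases, Klhl7 (chromosome 5, 24100605 to 24160792), whose human gene is mutated in a form of retinitis pigmentosa, was distributed like Psmd6. Its values ran from 0 through 1.37 to 14.77 in OL and from 2.54 through 6.88 to 19.50 in O, and its highest cell was at 2.10 in OligNBL, 5.34 in NBL and 2.56 in NB. The level was 2.89 ± 4.68 in OL and 8.88 ± 5.15 in O, where OL minus O was -6.0, and O stood 8.73 above NB. The last 3 OL cells held 12.65, 14.77 and 14.42, as with Psmd6. Klhl2, an actin-binding adaptor, was at 1.17 ± 2.33 in OL, 2.76 ± 3.86 in O and at most 0.09 elsewhere. Klhl31 was detected in most cells, in 37 of 40 OligNBL, 25 of 27 NBL, 22 of 22 OL, 29 of 29 O and 29 of 37 NB cells, and lay between 2.51 ± 1.64 in OligNBL and 4.85 ± 1.27 in O. Klhl32 lay between 1.25 ± 1.13 in NBL and 2.80 ± 1.57 in OL, and Klhl9 between 0.30 ± 0.62 in NB and 2.41 ± 2.77 in OligNBL. Klhl20 and the scaffold Cul4a varied by less than 1. The membrane ligase March7, also called axotrophin, was at 0.36 ± 0.75 in OligNBL, 5.41 ± 3.36 in NBL, 0.00 in OL, 0.32 ± 0.65 in O and 4.45 ± 5.62 in NB. It was high in both populations of the GFP gate and low in OligNBL, whose cells are also GFP+. March8 was at 1.65 ± 3.28 in OligNBL and at most 0.23 elsewhere.

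OligNBL against NBL compared double positive with GFP+ cells of demyelinated mice. Of the 78 genes, 11 were higher in OligNBL by at least 2, where 12.2% of all genes were, led by Fbxo22, Usp34, Fbxl20, Usp14 and Psmb7 and with Psme2, Psme4, Usp5, Ube2l3, Psma7 and Ube2h. A further 12 were lower, where 10.3% of all genes were, led by Ube2v2, Psmd7, Psmb6 and March7. With block means apart as well, 7 were higher (8.56% of all genes) and 3 lower (3.77%). The median difference was -0.053, against 0.035 over all genes. As shares of the 78 genes, 14.1% were higher and 15.4% lower, and 8.97% and 3.85% with block means apart. The shares with block means apart are near the background. No 19S subunit was higher, and the 9 Psmd genes had a median difference of -1.44.

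OligNBL against OL compared double positive with Tomato+ cells of demyelinated mice. Again 11 were higher (14.1%, against 13.2% of all genes), 8 of them with block means apart (10.3%, against 10% of all genes): Fbxo22, Usp47, Psme4, Psma7, Usp5, Psme2, Ube2h and Fbxo30. The 11 lower genes (14.1%, against 12.2% of all genes) included 7 with block means apart (8.97%, against 5.73%), which were Fbxl5, Usp46, Psmb6, Psmd6, Psmd12, Klhl7 and Psmb5. Of the 23 core and 19S subunits, 2 were higher and 7 lower. The median over the 78 genes was 0.22, against 0.13 over all genes. As both comparisons share the OligNBL cells, they are not independent; Fbxo22, Psme2, Psme4, Usp5 and Ube2h were higher by both measures in each.

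NBL against NB compared GFP+ cells of demyelinated and healthy mice of the same strain. Higher in NBL were 12 genes (15.4%, against 9.76% of all genes), with Psmd7, Ube2v2, Usp47, Psmd14 and Psmd11 apart by block (5, or 6.41%, against 3.86%). Lower in NBL were 11 (14.1%, against 8.39% of all genes), with Fbxo21, Ube2n, Usp38, Psma5 and Psmd4 apart by block (5, or 6.41%, against 2.98%). The 9 Psmd genes split evenly, 3 higher (Psmd7, Psmd14 and Psmd11) and 3 lower (Psmd12, Psmd1 and Psmd4). The median was -0.015, against -0.0036 over all genes.

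OL against O compared Tomato+ cells of demyelinated and healthy mice of the same strain. The 8 higher genes (10.3%, against 8.36% of all genes) were Fbxl5, Psmc3, Psma2, Psmd7, Psmb6, Ube2v1, Psmb5 and Psmd12, of which 6 encode core or 19S subunits. The 4 lower genes (5.13%, against 7.92% of all genes) were Psmd6, Klhl7, Psmd2 and Psmc2, of which 3 do, where 23 of the 78 genes are such subunits. Only Fbxl5 and Psmb5 were apart by block among the higher genes (2, or 2.56%, against 2.69% of all genes), and 0 of the lower (against 1.23%). The median was -0.12, against -0.099 over all genes.

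O against NB compared Tomato+ with GFP+ cells of healthy mice. Higher in O were 8 genes (10.3%, against 12.3% of all genes): Psmd6, Klhl7, Usp46, Psmd2, Psma1, Klhl2, Fbxw5 and Psmc2, the first 4 of them apart by block (5.13%, against 8.91% of all genes). Lower in O were 16 genes, or 20.5%, where 13.5% of all genes were. Of these, 14, or 17.9%, had block means apart, where 10.1% of all genes did. They were Fbxo30, Usp28, Fbxo21, March7, Fbxo3, Psmd12, Usp10, Ube2n, Usp38, Psmd4, Ube2d2a, Psmc3, Psmb3 and Psmb4. The median was 0.011, against 0.094 over all genes.

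**Figure D4:**
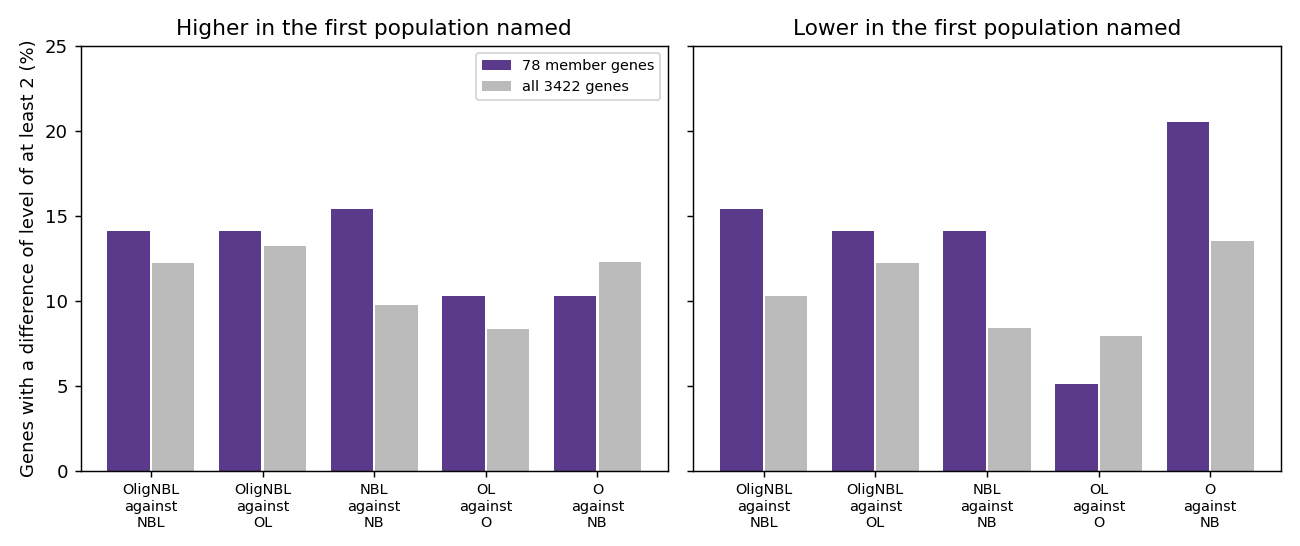
Share of the 78 genes (purple) and of all 3422 genes (grey) whose level was higher (left) or lower (right) by at least 2 in the first population named, for the 5 comparisons. The widest gap between a purple and a grey bar is for genes lower in O than in NB, at 20.5% against 13.5%.

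The comparisons NBL against NB and OL against O share no cells, and both set demyelinated against healthy mice. Psma2, Psmb6 and Psmd7 were higher in both. That is 3 of the 12 genes higher in NBL (25%) and 3 of the 8 higher in OL (37.5%), whereas over all genes 22 were higher in both, 6.59% of those higher in NBL and 7.69% of those higher in OL. Higher in NBL but lower in OL were 18 of the 334 genes of the whole table that were higher in NBL, and 0 of the 12 among the 78. Psma2 differed by 2.43 and 2.84, Psmb6 by 5.11 and 2.72 and Psmd7 by 7.01 and 2.77, each as NBL minus NB and then OL minus O. In OligNBL, also labelled demyelinated, the 3 genes were low, at 0.70 ± 1.52 for Psma2, 0.16 ± 0.46 for Psmb6 and 0.45 ± 0.76 for Psmd7. No gene among the 78 was lower in both, of 11 lower in NBL and 4 lower in OL. Over all genes 16 were, 5.57% of those lower in NBL and 5.90% of those lower in OL. At such shares a count of 0 among so few genes is not read as a difference. Except for Psmd7 in NBL, none of the differences of Psma2, Psmb6 and Psmd7 had block means apart. Psma2 and Psmb6 had the same longest stretch in each population, the 10th to the 20th NBL cell and the 8th to the 19th OL cell. They are thus not separate observations.

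**Figure D5:**
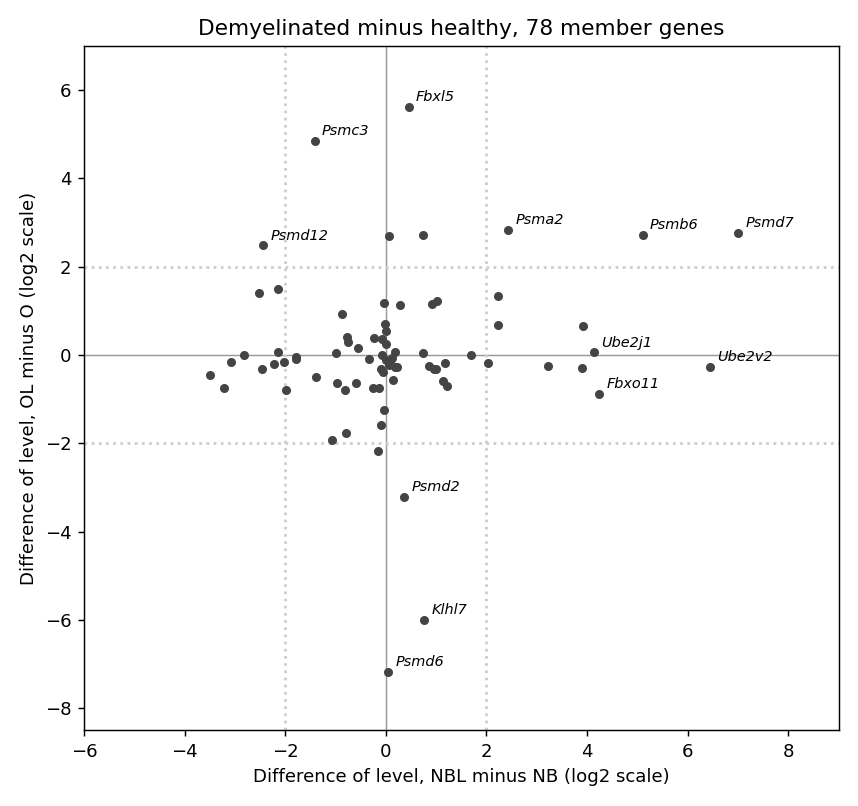
Difference of level of each of the 78 genes between demyelinated and healthy cells on the log2 scale, in the GFP gate (NBL minus NB, horizontal) and the Tomato gate (OL minus O, vertical); dotted lines mark differences of 2. Psma2, Psmb6 and Psmd7 lie past both lines in the upper right, Psmd12 alone lies in the upper left, and Psmd6 and Klhl7 are low in the vertical direction only.

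Within a population, signal for these genes came in runs of neighboring cell numbers. Of the cells with a value of at least 2 for a given gene, 71.3% in OligNBL, 73.6% in NBL, 77.6% in OL, 68.9% in O and 71.8% in NB had such a cell directly before or after them. Of the other cells 17.9 to 22.6% did. Over all genes the share was 67.4 to 72.7%, so the runs are a property of the table. In OL, Psmd7 and Psmb5 were high in the first 8 cells, Psmc3 in the first 10, Psma2 and Psmb6 in the 8th to the 19th and Psmd6 in the last 3. Some runs went on across populations. Psma1, Klhl2 and Fbxw5 were at 2 or more in the last 3 OL cells. They were so again in the 3rd to the 10th O cell, the next by number. Between the 8 core and 19S subunits with a level of at least 2 in OL, the median correlation over its 22 cells was -0.35 (range -0.59 to 0.83), and in NB, also over 8 subunits, it was 0.26 (-0.27 to 0.91) over 37 cells. Over all genes at that level the medians were -0.044 in OL and -0.0057 in NB. These cells share their neighbors and their normalization, so the correlations are descriptions. On the linear scale the single highest cell held a median of 83.6% of a gene's summed signal in a population, over the 99 pairs of a gene and a population with a level of at least 2 (81.2% over all genes), which is why levels are means of log values.

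A list of other ubiquitin pathway genes was read in the same way, of which 41 were measured. In OligNBL against NBL, 5 of these were higher (12.2%, as over all genes) and 7 lower (17.1%, against 10.3%). In OligNBL against OL, 4 were higher (9.76%, against 13.2%) and 8 lower (19.5%, against 12.2%). In NBL against NB, 8 were higher (19.5%, against 9.76%) and 9 lower (22%, against 8.39%). In OL against O, 7 were higher and 7 lower (17.1% each, against 8.36% and 7.92%). In O against NB, 10 were higher (24.4%, against 12.3%) and 11 lower (26.8%, against 13.5%). Ubb, a gene that encodes ubiquitin itself, was at 9.75 in OligNBL, 7.65 in NBL, 4.42 in OL, 1.20 in O and 6.24 in NB. OL and O, the populations of the Tomato gate, thus stood lowest, and OligNBL, whose cells are also Tomato+, highest. The ubiquitin-activating enzyme Uba1 was at 3.34 in OL and at most 0.55 elsewhere, and Uba2, which activates SUMO, was at 6.05 to 8.14 in all 5 populations.

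Across the 78 genes, 7 share at least 50% of the 31-base words of their GENCODE vM21 transcripts with other genes: Ube2v1, Psmb5, Psmb3, Psma5, Psme2, Ube2l3 and Ube2h. Levels of these 7 are uncertain, as reads may have been divided with pseudogenes or near copies. Usp14 (45.5%), Psmd2 (45.3%) and Usp33 (41.1%) lie below that mark and are open to the same doubt. For 48 genes the shared part was under 5%.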

How the data were processed

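Single cells were measured by SMART-Seq2, and the submitters' processing notes name kallisto, limma and the genome build GRCm38, with no tool version stated in the sources used here. The authors deposited 1 table of 3422 genes and 155 cells, named estimated counts, whose deposited values are a normalized signal: the highest values are the same in all cells and totals differ by 0.101%. Count models were therefore not used, and depth is unknown. In 1 NB cell the lowest value is 0.00585 instead of 0; detection means a value above the lowest of the cell.

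Cells were grouped by the population name of the labels. The level is the mean of log2(value + 1), with a pseudocount of 1, which understates differences of low genes. A call is a difference of levels of at least 2; "block means apart" means that all 4 block means of 1 population, in order of cell number, lie above those of the other. Each population is 1 sample, so no p-value was computed. No cell was removed from levels; doublets were not called. Presence among the 500 highest genes leaves out 2 NB cells with fewer genes detected. Shares have exact Clopper-Pearson 95% intervals.

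Genes named are those with a difference of at least 2 and of at least 20 percentage points in presence, up to 10 each way per comparison, up to 4 per role by mean level, and up to 4 each way among other pathway genes. The genes, lists and rules were chosen with earlier results of these data known. Positions and shared words come from GENCODE vM21; promoters from RefSeq (GRCm38.p6), where 61 of the 78 genes matched. Some genes that the rules name are counted but not reported here. The computation was tested on simulated data. The work used scipy 1.17.1, pandas 2.3.3, numpy 2.4.6 and matplotlib 3.10.9 under Python 3.11.15. Alternatives changed the pseudocount, filter, difference, scale, blocks, cells and number of highest genes.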

Additional observations from a re-analysis of the deposited data

Results flagged for a closer look

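Psmd12, a lid subunit of the 19S particle, moved in opposite directions in demyelinated cells of the GFP and Tomato gates. Its level was 2.44 lower in NBL than in NB and 2.49 higher in OL than in O, so the differences themselves differed by -4.93 (NBL minus NB, less OL minus O). Levels were 2.34 ± 2.85 in NBL and 4.78 ± 4.41 in NB, and 3.63 ± 3.88 in OL and 1.13 ± 1.97 in O (SD between cells). Block means overlapped in the OL comparison with O and in that of NBL with NB. The difference was not tested, since each population is 1 sample. Over all genes, 21 of the 287 lower in NBL were higher in OL. In NB the longest stretch of Psmd12 was 10 consecutive cells, and in OL 9.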

How the results depend on the processing

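The 89 named differences of level kept their sign in all 623 values under alternatives, and 2 moved by more than the SD between cells, both with a pseudocount of 10: Usp28 in OligNBL against NBL (-1.52) and Psmd6 in O against NB (7.34). Counts of genes past the difference were less stable. The counts that follow are given without the share over all genes under the same alternative, so they are not read against a background. A direction left out is not reported here, which does not mean a count of 0. With a pseudocount of 10 they were 3 higher and 6 lower for OligNBL against NBL, 4 and 6 for OligNBL against OL, 2 lower for NBL against NB, 4 higher for OL against O, and 4 and 9 for O against NB. The median differences were then 0.038 for OligNBL against OL and -0.025 for OL against O. A larger pseudocount shrinks differences of low values by construction. At a difference of at least 3 the counts were 5 higher and 7 lower for OligNBL against NBL, 4 higher for OligNBL against OL, 3 lower for NBL against NB, 2 higher for OL against O, and 4 and 10 for O against NB. On mean ranks, 24 genes were lower in OligNBL than in NBL; the cause was not tested. With 3 blocks in place of 4, block means were apart for 5 genes lower in OligNBL against NBL, 8 higher in NBL against NB and 1 higher in OL against O.

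Medians over the 78 genes lie near 0 and changed sign easily. Among genes with a level of at least 1 in either population they were 0.53 for OL against O, -0.28 for O against NB and -0.15 for NBL against NB. Cells with at least 1000 genes detected gave 0.089 for O against NB, leaving out cells numbered below 22 gave 0.057 for OligNBL against OL, and leaving out the highest cell of each gene, chosen after seeing the data, gave 0.14 for OligNBL against OL and -0.093 for OL against O. Among the 300 highest genes, cells held 5.23 (OligNBL), 7.26 (NBL), 6.45 (OL), 5.55 (O) and 7.40 (NB) of the 78 genes, fewer by construction. The number of 19S subunits per cell among them was 0.18 in OligNBL, 1.48 in NBL, 1.68 in OL, 1.76 in O and 1.46 in NB, also chosen after seeing the data. No paired analysis was possible because the labels name no mouse for any cell and each population is 1 sample. Depth is unknown, so a gene at 0 may have been missed, and no replicate bounds any difference.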

Other observations

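Among the other ubiquitin pathway genes, NBL cells were high in a set of genes that the families above do not hold. Cdc27, a subunit of the anaphase-promoting complex, ran from 0 through 5.69 to 19.50 in NBL and was at 1.00 ± 1.39 in OligNBL, 7.68 ± 5.72 in NBL, 0.66 ± 1.12 in OL, 2.55 ± 2.48 in O and 1.35 ± 1.77 in NB. Cops4, a subunit of the COP9 signalosome, which removes Nedd8 from cullins, was at 1.27 ± 2.08 in OligNBL, 7.44 ± 3.68 in NBL and 4.61 ± 5.82 in NB. Ubqln2, a shuttle that carries tagged proteins to the proteasome, was at 6.51 ± 5.52 in NBL and at most 0.98 in each other population.

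OligNBL had the ligase Wwp2, which ran from 0 through 4.14 to 17.75 and was detected in 33 of 40 cells, at 4.36 ± 4.21, against at most 0.35 in the other 4 populations. Arih1, a ligase that works with cullins, was at 2.43 ± 3.69 in OligNBL and at most 0.49 elsewhere. The ligase Ubr7 was at 1.78 ± 2.92 in OL, 7.10 ± 6.06 in O and 0.33 ± 1.18 in NB. The modifier Sumo2 was at 1.25 ± 1.96 in OligNBL, 2.13 ± 2.40 in NBL, 4.62 ± 3.75 in OL, 7.20 ± 2.74 in O and 4.37 ± 3.02 in NB, and Sumo3 was at 2.91 ± 3.05, 0.13 ± 0.49, 1.36 ± 2.78, 5.57 ± 5.65 and 0.54 ± 1.59 in the same order. Btrc, the F-box protein of beta-catenin turnover, which the symbol rule does not hold, was at most 0.50 in the other populations and 4.66 ± 5.11 in NB. Uchl5, a deubiquitinase of the 19S particle, was at 3.06 ± 4.11 in OligNBL, 1.10 ± 1.87 in NBL, 6.00 ± 4.95 in OL, 4.14 ± 4.55 in O and 1.75 ± 2.84 in NB. This order was unlike that of Psmd14, another deubiquitinase of the particle. Usp14, which also acts on the proteasome, was like Uchl5 lowest in NBL, at 1.83.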
